A study of Mus musculus with 9 samples.

Results

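Expression of the genes that carry TLR7 to endosomes and keep it working there was measured by RNA sequencing in mouse peritoneal macrophages. The genes *Unc93b1*, *Hsp90b1*, *Cnpy3*, *Slc15a3*, *Slc15a4*, *Ap3b1*, *Ap3d1* and *Hgs* are 8 of 9 members chosen by name, with no measured value in the rule, out of 54059 genes in the deposited table. All 9 libraries came from macrophages of C57BL/6 mice aged 8 weeks that had been given 1 ml of starch broth 3 days before lavage, and all cells were exposed *in vitro* to imiquimod (IMQ), a TLR7 agonist, for 4 h. The groups were 3 libraries of wild-type macrophages, 3 libraries of M-Shp2-/- macrophages (Lyz2-cre:Shp2 fl/fl, in which Cre under the *Lyz2* promoter deletes *Ptpn11*, the gene of SHP2, in myeloid cells) and 3 libraries of wild-type macrophages pretreated with 10 µM SHP099, an allosteric SHP2 inhibitor, for 2 h. The same 3 wild-type libraries were the reference in both comparisons with wild type, and no library of cells without IMQ was analysed here. The labels do not say whether the libraries of a group came from separate animals. The p-values therefore measure the spread between these samples, which may be technical. Reads of 2 libraries of a group differed by a chi-square per degree of freedom of 20.3 to 218, more than counting error alone gives. Whether animals or handling set that spread was not tested.

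TLR7 recognises single-stranded RNA and small agonists such as IMQ, and it does so inside endosomes and not at the cell surface. It is folded in the endoplasmic reticulum (ER), escorted out of it by a membrane protein, sorted by adaptor complexes into endolysosomes and cut there by proteases before it can signal through MyD88. Transporters of the lysosomal membrane and the movement of lysosomes along microtubules shape the compartment in which it works, and macrophages use this route to sense RNA from microbes and dying cells.

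Levels were deposited as FPKM, the fragments of a gene scaled to its length and to the fragments of the library, so that levels of different genes can be compared per length. The step between low FPKM values gave a depth of 39842200 to 50979808 reads per library. *Ptpn11*, which checks the labels, had an FPKM of 45.8, 44.0 and 40.0 in wild-type, 18.6, 17.8 and 18.9 in M-Shp2-/- and 43.0, 42.1 and 39.6 in SHP099 libraries. The 3 M-Shp2-/- libraries lay below all other libraries and the log2 fold change against wild type was -1.19 (adjusted p = 0.0168). That call was lost without wild type 1 (0.105), wild type 2 (0.125), M-Shp2-/- 1 (0.196) or M-Shp2-/- 2 (0.151) in the fit, each adjusted p given beside the library left out. The FPKM of *Tlr7* was 89.6, 87.0 and 103 in wild-type, 73.8, 88.5 and 72.0 in M-Shp2-/- and 49.6, 48.7 and 67.8 in SHP099 libraries. Its SHP099 libraries were the lowest 3 of the 9, and M-Shp2-/- 2 lay among the wild-type libraries.

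The labelled cell type was checked against its markers. The 6 macrophage markers summed to an FPKM of 1661 to 2136 per library, led by *Cd68*, and all 6 were tested. The 4 markers of resident large peritoneal macrophages summed to 11.8 to 24.7, led by *Cd5l*. The neutrophil list summed to 35.2 to 96.6 over 6 genes, led by *S100a8*, with the defining markers *Ly6g*, *Cxcr2* and *Mpo* under 0.1 in each library. The T cell list (5 genes, most abundant *Cd3g*) summed to 0.498 to 5.60, the conventional dendritic cell list (5 genes, *Zbtb46*) to 0.619 to 1.83, the mast cell and eosinophil list (5 genes, *Kit*, with *Epx* under 0.1) to 0.286 to 4.72 and the mesothelial list (4 genes, *Wt1*) to 1.42 to 8.97. The plasmacytoid dendritic cell list (5 genes) summed to 25.6 to 37.0, led by *Cox6a2*, while *Siglech* was under 0.1. No marker of any list was at 0 in all 9 libraries. The mast cell and eosinophil sum was 4.72, 1.79 and 2.29 in wild-type, 1.79, 3.13 and 0.582 in M-Shp2-/- and 0.394, 0.286 and 0.463 in SHP099 libraries, and *Kit* had a log2 fold difference of -1.11 with SHP099 (adjusted p = 0.123). The SHP099 sums also lay below all wild-type sums for the resident large peritoneal macrophage list (11.8, 14.8 and 12.9 against 16.6, 24.7 and 22.6) and the conventional dendritic cell list (0.784, 0.725 and 0.619 against 1.24, 1.28 and 0.809). In the resident list *Cd5l* was lower, but 2 of the 3 tested markers were above 0 with SHP099 (median log2 fold difference 0.092). One of these, *Icam2*, lay above all wild-type libraries (FPKM of 3.23, 3.35 and 3.72 against 3.07, 2.42 and 2.87). For the plasmacytoid dendritic cell list the SHP099 sums lay above all wild-type sums (37.0, 36.5 and 36.2 against 25.6, 27.1 and 27.0). Of the 2 tested markers of that list, *Cox6a2* rose and the other went the other way. The latter had a log2 fold difference of -0.29 that did not pass, with SHP099 libraries below all wild-type libraries. With SHP099, *Csf1r* had a log2 fold difference of 1.38 (adjusted p = 0.0222) and *Cox6a2* of 1.25 (adjusted p = 0.0151). *Csf1r* was not typical of its list, since 4 of the 6 macrophage markers were below 0 with SHP099 (median log2 fold difference -0.23). The FPKM of *Cd68* was 1211, 1271 and 1269 in SHP099 libraries, below all wild-type libraries (1498, 1339 and 1294).

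Some libraries stood apart from their group. The correlation of log2 values across genes was 0.992 between M-Shp2-/- 1 and 2, and 0.967 and 0.954 between these and M-Shp2-/- 3, which reached 0.984 with SHP099 1. Wild type 3 reached 0.976 and 0.974 with the other wild-type libraries, which reached 0.984 with each other. Libraries of different groups were in places more alike than those of one group, wild type 1 reaching 0.986 and 0.988 with M-Shp2-/- 1 and 2, and wild type 3 reaching 0.978 with SHP099 3. The 5 fibroblast markers, led by *Col1a1*, summed to an FPKM of 56.0, 271 and 36.1 in wild-type, 122, 45.6 and 547 in M-Shp2-/- and 333, 125 and 94.4 in SHP099 libraries. The 5 B cell markers, led by *Ighm*, summed to 9.90, 16.5 and 47.0 in wild-type, 34.9, 17.3 and 178 in M-Shp2-/- and 19.7, 13.6 and 27.7 in SHP099 libraries. M-Shp2-/- 3 was highest on both lists. Fits with a fibroblast score as covariate, the mean log2(FPKM + 1) of markers of that list, are given below where they changed a call. What part the cells of the other marker lists, or their RNA, have in the values that follow was not tested. In bulk samples such as these, fewer cells of a type and less RNA per cell cannot be told apart.

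Across the comparisons, *Slc15a4*, a transporter of the endolysosomal membrane, was the member whose mRNA passed the test. It rose with SHP099, with a log2 fold difference of 0.47 against wild type, and its M-Shp2-/- fold change against wild type of 0.49 did not pass. Transcripts of *Unc93b1*, *Cnpy3*, *Slc15a3*, *Ap3b1* and *Ap3d1* did not pass in any comparison with all libraries, and neither did *Hsp90b1*, whose values differed widely among the wild-type and among the M-Shp2-/- libraries. *Hgs* had at most 2 reads per library and was not tested. Fold changes are differences of mean log2(FPKM + 1), tested with limma for the 11450 genes whose FPKM averaged at least 1 over the 9 libraries. The pseudocount makes the fold change of a low gene smaller than that of its FPKM.

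In M-Shp2-/- against wild type, limma called 0 of the 7 tested members with adjusted p values up to 0.05 (0.0873% of all genes tested) and 0 at the thresholds of the study, an adjusted p of at most 0.005 with a log2 fold change, up or down, of at least 1 (0.00873%). At an unadjusted p under 0.05 there was 1 member, *Slc15a4* (10.5% of all genes tested), and limma's voom on reads recovered from the FPKM called 0. Values of the groups did not overlap between libraries for 1 of 7 members, again *Slc15a4*, against 19.1% of all genes tested. With SHP099 against wild type, limma called 1 of 7 members with adjusted p values up to 0.05 (6.96% of all genes tested) and 0 at the thresholds of the study (0.166%), with 1 member at an unadjusted p under 0.05 (26.7%). Libraries did not overlap for 1 of 7 members, against 34.6% of all genes. In M-Shp2-/- against SHP099, the test of whether gene loss and inhibitor differ, limma called 0 of 7 members with adjusted p values up to 0.05 (0.0699%) and 0 at the thresholds of the study (0%). In that comparison 1 member, *Slc15a3*, had an unadjusted p under 0.05 (12.6% of all genes) and libraries that did not overlap (17.7%), and voom called 0. Leaving out wild type 2 or any 1 of the SHP099 libraries gave 0 members with SHP099 (0.41% to 3.48% of all genes in these fits), and leaving out wild type 3 gave 2 (11.1% of all genes). Leaving out M-Shp2-/- 3 gave 2 in M-Shp2-/- against SHP099, where 19.9% of all genes then passed (2277 of 11450, against 8 with all libraries), and calls gained without that library are read against this share. Counts of 0 or 1 of 7 are read against these shares of all genes, not as a result about the members, and so are the counts of the gene lists that follow, at an adjusted or an unadjusted p. With 3 libraries a group, the smallest p of an exact permutation test is 0.1.

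The median log2 fold change of all tested genes was 0.15 in M-Shp2-/- and 0.13 in SHP099 against wild type, and median-of-ratios scaling moved these to -0.012 and -0.0051. Fold changes relative to that median are therefore given beside the main members. Of the 7 tested members, 4 were above and 3 below 0 in either comparison with wild type, with medians of 0.12 and 0.036. With median-of-ratios scaling 3 of 7 were above 0 in either, with medians of -0.053 and -0.12.

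**Figure D1:**
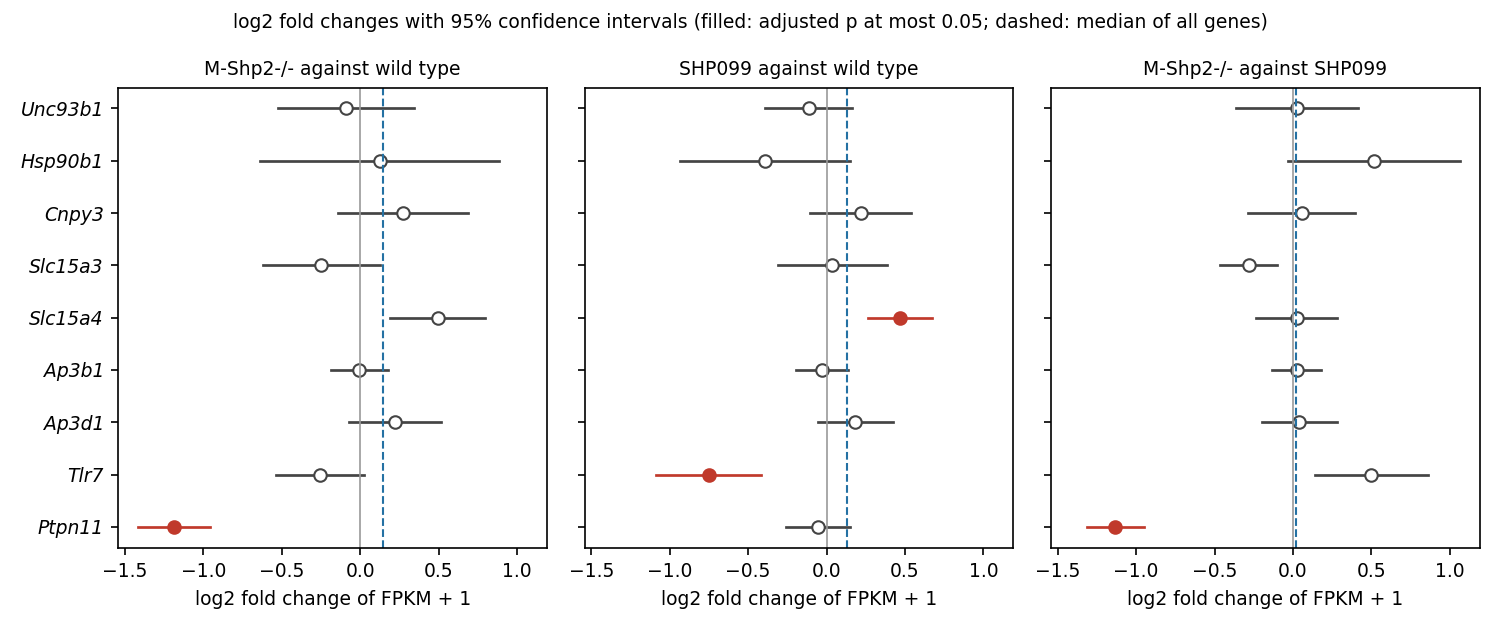
Log2 fold change of the 7 tested members, *Tlr7* and *Ptpn11* (horizontal axis) in the 3 comparisons, each point with its 95% confidence interval from limma on 3 libraries per group, and the median of all genes as a dashed line. The interval of *Slc15a4* runs from 0.27 to 0.67 with SHP099, and that of *Hsp90b1* from -0.94 to 0.15.

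The members differed widely in level and the order of their levels was much alike in the groups. In wild-type macrophages the mean FPKM was 791 ± 168 for *Slc15a3* (SD, n = 3), 287 ± 38.7 for *Unc93b1*, 194 ± 60.3 for *Hsp90b1*, 127 ± 13.7 for *Ap3d1*, 107 ± 3.40 for *Ap3b1*, 46.2 ± 7.49 for *Cnpy3* and 26.2 ± 1.95 for *Slc15a4*. *Hgs* is left out of the order because its level is uncertain. In that order the libraries of neighbours overlapped only for *Hsp90b1* and *Ap3d1*. In M-Shp2-/- libraries the order was the same, and *Unc93b1* overlapped *Hsp90b1*, which overlapped *Ap3d1*. In SHP099 libraries *Ap3d1* (144 ± 9.38) stood just above *Hsp90b1* (143 ± 11.7) and overlapped it, and no other neighbours did. *Slc15a3* had a higher mean than 99.1% of the tested genes, and *Slc15a4*, the lowest of the tested members, a higher mean than 70.8%. Within groups, the SD of log2 values was 0.41 for *Hsp90b1* and 0.040 for *Ap3b1*, against a median of 0.19 over all genes.

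**Figure D2:**
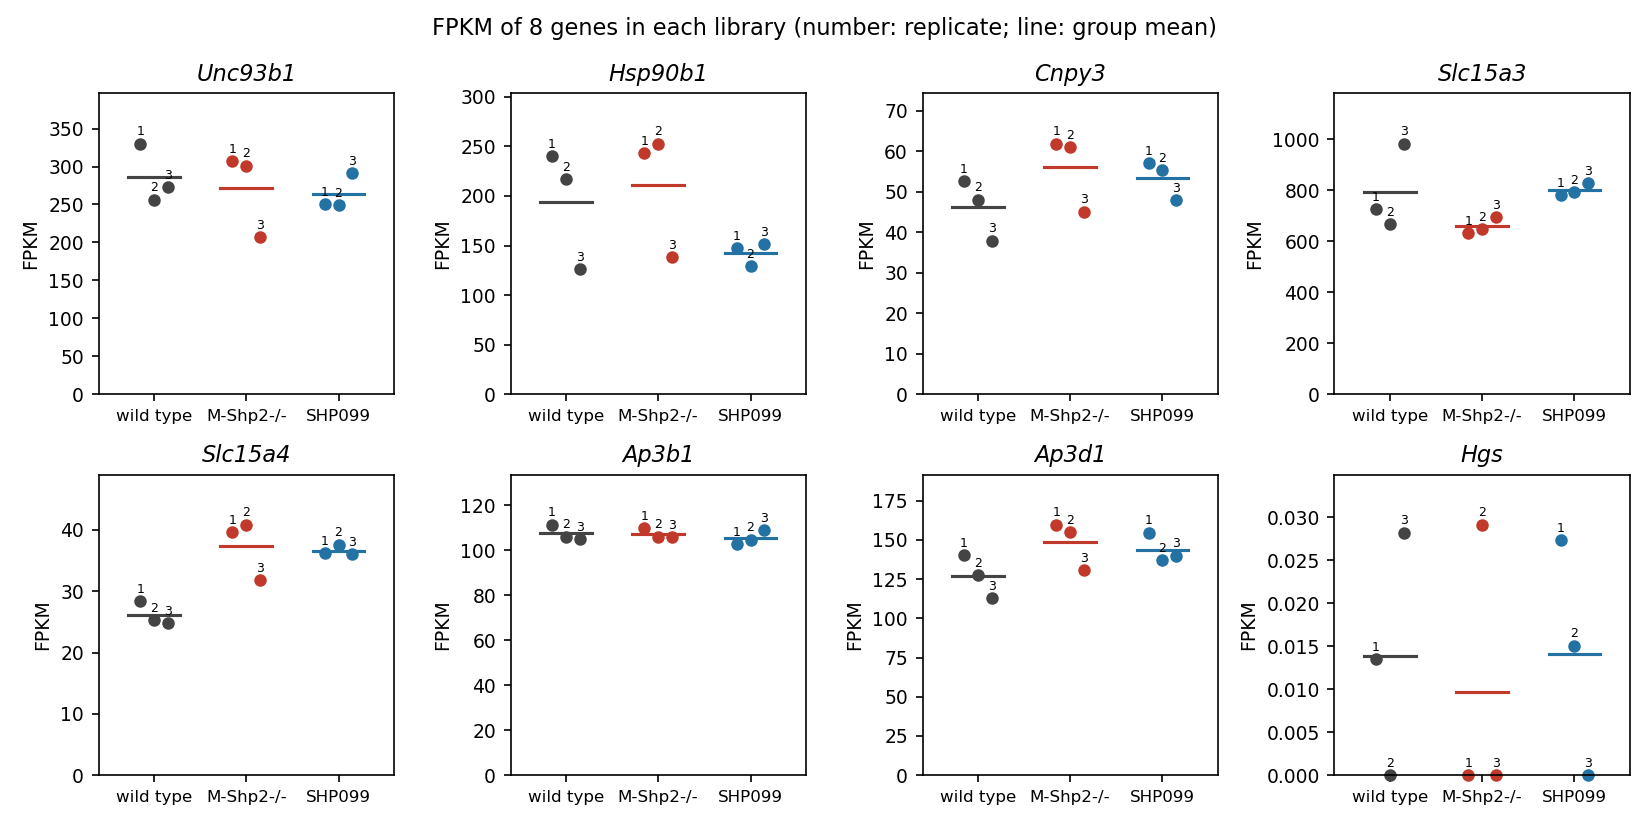
FPKM of each of the 8 genes (vertical axes, each from 0) in the 3 libraries of each group, numbered by replicate, with the group mean as a line. *Slc15a4* lies between 24.8 and 28.4 in wild-type libraries and from 31.8 up in all others, and *Hgs* is at most 0.0292 throughout.

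Wild type 3 held the lowest wild-type FPKM of 5 of the 7 tested members and M-Shp2-/- 3 the lowest M-Shp2-/- FPKM of 6, while each of these libraries held the highest value of its group for *Slc15a3*. The size factor of median-of-ratios scaling, a library's typical level over all genes, was 0.835 in wild type 3, against 0.976 and 0.992 in wild type 1 and 2. It was 0.995 in M-Shp2-/- 3, against 1.11 and 1.06 in M-Shp2-/- 1 and 2. The counts are of FPKM before that scaling, so they do not describe the members alone. Wild type 1 held the highest wild-type value of 6 members. The SHP099 libraries held 2, 3 and 2 of their group's lowest values in the order of replicates 1, 2 and 3.

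The first step of the route is the ER. UNC93B1, encoded by *Unc93b1* (ENSMUSG00000036908, chr19:3935186-3949340 of GRCm38, forward strand), is the multi-pass membrane protein that binds endosomal TLRs in the ER and stays with them on the way to endosomes. Its FPKM was 330.2, 256 and 273 in wild-type, 307, 301 and 207 in M-Shp2-/- and 251, 249 and 291 in SHP099 libraries. The groups overlapped, with wild type 1 highest and M-Shp2-/- 3 lowest. Its log2 fold change against wild type was -0.089 (standard error 0.18, 95% confidence interval -0.52 to 0.34, adjusted p = 0.814) in M-Shp2-/- and -0.11 (adjusted p = 0.590) with SHP099. Relative to the median of all genes these were -0.24 and -0.24. The first of them turned to 0.094 without M-Shp2-/- 3 in the fit and 0.017 without wild type 1. In M-Shp2-/- against SHP099 it was 0.025 (adjusted p = 0.958), a sign that turned with median-of-ratios scaling (-0.0024) and without M-Shp2-/- 1 (-0.074), M-Shp2-/- 2 (-0.060), SHP099 1 (-0.010) or SHP099 2 (-0.013).

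*Hsp90b1* (ENSMUSG00000020048, chr10:86690209-86705509, reverse strand) encodes GRP94, also called gp96, the ER chaperone that TLRs need to fold. Its FPKM was 240.3, 217 and 126 in wild-type, 243, 253 and 138 in M-Shp2-/- and 147, 129 and 151 in SHP099 libraries. Wild type 1 and 2 and M-Shp2-/- 1 and 2 lay between 217 and 253, and wild type 3, M-Shp2-/- 3 and all SHP099 libraries between 126 and 151, so that every pair of groups overlapped. The fold change on the log2 scale with SHP099 was -0.39 (standard error 0.23, 95% confidence interval -0.94 to 0.15, adjusted p = 0.323), and -0.52 relative to all genes. Without wild type 3 it was -0.68 with an adjusted p of 0.0153 (over all alternatives 0.0153 to 0.608). Against wild type, M-Shp2-/- gave 0.12 (adjusted p = 0.853), which was -0.053 under median-of-ratios scaling, -0.16 without wild type 3, -0.0017 without M-Shp2-/- 1 and -0.029 without M-Shp2-/- 2. M-Shp2-/- against SHP099 gave 0.52 (adjusted p = 0.411) with all libraries. Without M-Shp2-/- 3 it gave 0.80 with an adjusted p of 0.00326 (over all alternatives 0.00326 to 0.806). M-Shp2-/- 3 is the library with the highest fibroblast and B cell sums. With all libraries and a fibroblast score as covariate the difference did not pass, and the part of the B cell markers was not tested.

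*Cnpy3* (ENSMUSG00000023973, chr17:46735705-46752214, reverse strand) encodes PRAT4A, the cofactor with which GRP94 folds TLRs. Its FPKM was 52.6, 48.0 and 37.9 in wild-type, 61.9, 61.1 and 45.0 in M-Shp2-/- and 57.1, 55.4 and 48.0 in SHP099 libraries. Replicate 3 was the lowest of its group in all 3 groups, and the groups overlapped. Its log2 fold change was 0.27 (adjusted p = 0.526) in M-Shp2-/- and 0.22 (adjusted p = 0.356) with SHP099, or 0.12 and 0.090 relative to all genes. Between M-Shp2-/- and SHP099 it was 0.055 (adjusted p = 0.890). That sign turned without M-Shp2-/- 1 (-0.023), M-Shp2-/- 2 (-0.014) or SHP099 3 (-0.020).

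Of 12 further ER chaperones and folding factors, all were tested and 0 passed an adjusted p of 0.05 in limma or in voom in any of the 3 comparisons. At an unadjusted p under 0.05 there were 1 in M-Shp2-/- against wild type, 1 with SHP099 against wild type and 2 in M-Shp2-/- against SHP099. Most of the list followed the same libraries as *Hsp90b1*. Wild type 3 held the lowest wild-type FPKM of all 12, and M-Shp2-/- 3 the lowest M-Shp2-/- FPKM of 10 of 12. These are counts before scaling, and both libraries had the lowest size factor of their group. *Calr*, which encodes the lectin chaperone calreticulin and had the largest absolute fold change of the list with SHP099, had an FPKM of 1044, 811 and 481 in wild-type, 1041, 1058 and 430.0 in M-Shp2-/- and 537, 484 and 510.1 in SHP099 libraries. As for *Hsp90b1*, wild type 1 and 2 and M-Shp2-/- 1 and 2 were high and the other 5 libraries low. Its log2 fold change with SHP099 was -0.54 (adjusted p = 0.235), and -0.85 with an adjusted p of 0.0159 without wild type 3 (over all alternatives 0.0159 to 0.498). M-Shp2-/- against SHP099 gave 0.61 (adjusted p = 0.484), and 1.04 with an adjusted p of 0.00135 without M-Shp2-/- 3 (over all alternatives 0.00135 to 0.872). The median of the list was 0.17 in M-Shp2-/- and -0.075 with SHP099 against wild type, beside 0.15 and 0.13 for all genes, with 11 and 4 of 12 above 0, and 5 and 2 of 12 after median-of-ratios scaling.

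**Figure D3:**
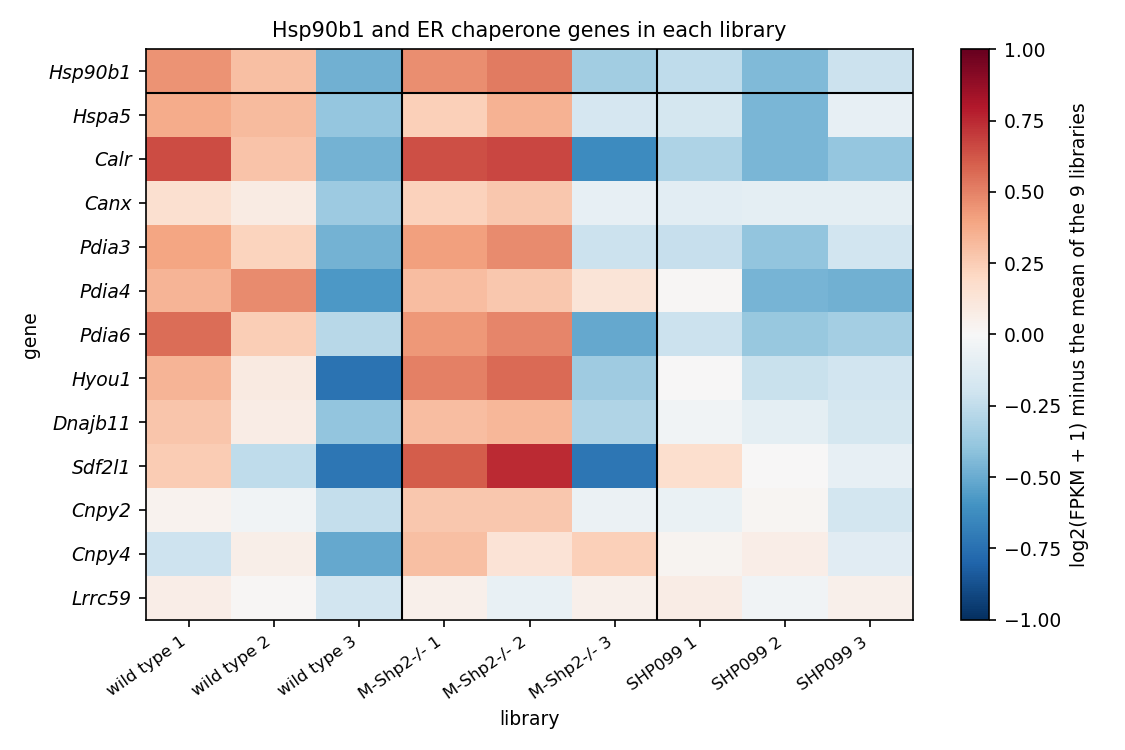
Log2(FPKM + 1) of *Hsp90b1* and the 12 genes of the ER chaperone list in each of the 9 libraries, shown as colour relative to the gene's mean over the 9 libraries (log2 units). For *Calr* the 4 libraries wild type 1 and 2 and M-Shp2-/- 1 and 2 hold an FPKM of 811 to 1058 and the other 5 hold 430.0 to 537.

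Because *Hsp90b1* and these chaperones varied over the same libraries, the 250 bases before their RefSeq start sites (GRCm38.p6) were searched on both strands for the ER stress response element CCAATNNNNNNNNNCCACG, for CACGTG (E-box), for GGGCGG (GC box) and for GAAANNGAAA (core of the interferon-stimulated response element). Promoters were given for 6 of 8 members and 11 of the 12 chaperones, and not for *Unc93b1*, *Slc15a3* and *Hyou1*. The ER stress response element was found in 33 of 27025 promoters (0.122%), in 1 of the 6 members, *Hsp90b1*, which held 2 matches, and in 4 of the 11 chaperones, *Hspa5*, *Calr*, *Pdia6* and *Canx*. CACGTG was found in 6.05% of promoters, 1 of 6 members (*Cnpy3*) and 2 of 11 chaperones. GGGCGG was found in 32.9%, 5 of 6 members and 6 of 11 chaperones, and GAAANNGAAA in 3.04%, with 0 of 6 and 0 of 11. The promoters with the element are shown as those of 5 genes with the same 4 libraries highest. *Pdia3*, *Pdia4* and *Dnajb11* had the same 4 libraries highest and no match. They read 5′ to 3′ on the strand of the gene, with the element on either strand in capitals, and lie at chr10:86705445-86705694 (*Hsp90b1*, reverse strand), chr2:34771840-34772089 (*Hspa5*, forward), chr8:84846932-84847181 (*Calr*, reverse), chr12:17266339-17266588 (*Pdia6*, forward) and chr11:50325674-50325923 (*Canx*, reverse).
Hsp90b1: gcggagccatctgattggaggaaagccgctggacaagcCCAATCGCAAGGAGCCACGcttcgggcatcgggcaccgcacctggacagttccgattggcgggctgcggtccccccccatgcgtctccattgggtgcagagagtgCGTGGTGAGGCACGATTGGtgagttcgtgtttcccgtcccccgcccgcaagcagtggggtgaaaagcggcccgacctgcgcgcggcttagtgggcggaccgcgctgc
Hspa5: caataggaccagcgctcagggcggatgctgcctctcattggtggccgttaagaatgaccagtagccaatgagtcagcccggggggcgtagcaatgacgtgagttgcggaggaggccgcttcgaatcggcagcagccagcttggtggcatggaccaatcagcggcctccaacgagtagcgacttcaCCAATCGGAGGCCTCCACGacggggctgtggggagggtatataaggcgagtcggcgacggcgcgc
Calr: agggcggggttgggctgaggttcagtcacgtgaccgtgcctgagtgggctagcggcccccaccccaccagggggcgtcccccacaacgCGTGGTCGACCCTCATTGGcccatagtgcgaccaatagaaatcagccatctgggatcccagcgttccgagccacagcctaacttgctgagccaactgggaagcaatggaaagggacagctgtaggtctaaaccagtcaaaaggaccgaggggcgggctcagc
Pdia6: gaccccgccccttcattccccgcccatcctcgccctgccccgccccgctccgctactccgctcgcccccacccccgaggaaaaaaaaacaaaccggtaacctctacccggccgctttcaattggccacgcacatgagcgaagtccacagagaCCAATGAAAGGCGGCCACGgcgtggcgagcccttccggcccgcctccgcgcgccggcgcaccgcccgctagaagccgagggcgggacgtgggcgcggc
Canx: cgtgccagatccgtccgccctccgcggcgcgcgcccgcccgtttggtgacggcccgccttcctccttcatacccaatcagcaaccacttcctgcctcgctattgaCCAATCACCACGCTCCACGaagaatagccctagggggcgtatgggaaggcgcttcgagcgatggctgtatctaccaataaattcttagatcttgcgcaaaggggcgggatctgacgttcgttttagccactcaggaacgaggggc

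In *Hsp90b1* the matches began 212 and 107 bases before the start site, the nearer one on the opposite strand, and in *Hspa5* the match began 65 bases before it. *Hspa5* encodes BiP, the main Hsp70 of the ER, and had an FPKM of 684, 657 and 403 in wild-type, 621, 673 and 469 in M-Shp2-/- and 468, 384 and 498 in SHP099 libraries. *Pdia6*, a protein disulfide isomerase, had 302, 243 and 169 in wild-type, 278, 288 and 144 in M-Shp2-/- and 177, 157 and 162 in SHP099 libraries. In both genes, wild type 1 and 2 and M-Shp2-/- 1 and 2 were the highest 4 libraries, and the groups overlapped. With SHP099 the log2 fold change was -0.34 (adjusted p = 0.358) for *Hspa5* and -0.49 (adjusted p = 0.170) for *Pdia6*. *Hspa5*, *Pdia6*, *Canx*, *Pdia4* and *Dnajb11* were named after their values were seen. The search was prompted by the values of these libraries, so the shares of promoters are a description and not a test. A match describes the letters of a window and does not show binding.

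SLC15A3 and SLC15A4 are proton-coupled transporters of histidine and small peptides in the endolysosomal membrane, and SLC15A4 also carries the adaptor TASL, which recruits IRF5. *Slc15a4* (ENSMUSG00000029416, chr5:127595664-127632897, reverse strand) had an FPKM of 28.4, 25.3 and 24.8 in wild-type, 39.7, 40.9 and 31.8 in M-Shp2-/- and 36.2, 37.6 and 36.0 in SHP099 libraries. All 3 SHP099 libraries and all 3 M-Shp2-/- libraries lay above all wild-type libraries, and M-Shp2-/- 3 was the lowest of these 6. *Slc15a4* rose with SHP099, with a mean of 139.8% of wild type and a log2 fold difference of 0.47 (standard error 0.086, 95% confidence interval 0.27 to 0.67, adjusted p = 0.0279), or 0.34 relative to all genes. In M-Shp2-/- the mean was 143% of wild type and the log2 fold change 0.49 (standard error 0.13, 95% confidence interval 0.19 to 0.80, adjusted p = 0.433), or 0.35 relative to all genes. M-Shp2-/- against SHP099 gave 0.025 (standard error 0.11, 95% confidence interval -0.23 to 0.28, adjusted p = 0.939), a sign that turned to -0.0022 with median-of-ratios scaling and changed without M-Shp2-/- 1 (-0.020) or M-Shp2-/- 2 (-0.041). A difference between gene loss and inhibitor was not shown. With median-of-ratios scaling the SHP099 fold change was 0.32 (adjusted p = 0.0948), and without the filter on low FPKM its adjusted p was 0.0642. The call was also lost without wild type 2 (0.0715), SHP099 1 (0.120), SHP099 2 (0.149) or SHP099 3 (0.0856), the adjusted p without each in parentheses, and over all alternatives the adjusted p was 0.0228 to 0.149. The fold change with SHP099 was 0.32 to 0.53 over the same alternatives. Exons of *Slc15a4* share 427 bases with *Gm43474* on the opposite strand, and the counting strand is not given in the sources used here.

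The promoter of *Slc15a4*, the member that passed, is shown with the GC box GGGCGG on either strand in capitals (chr5:127617393-127617642 of GRCm38.p6, reverse strand, from RefSeq). Its start site lies inside the gene as GENCODE M21 spans it, and it holds 2 matches, which begin 93 and 72 bases before the start.
Slc15a4: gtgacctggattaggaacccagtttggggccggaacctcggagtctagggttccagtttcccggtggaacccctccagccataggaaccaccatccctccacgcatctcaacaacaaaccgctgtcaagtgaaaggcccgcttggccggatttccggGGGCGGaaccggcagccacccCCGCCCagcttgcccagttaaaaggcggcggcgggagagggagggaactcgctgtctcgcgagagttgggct

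*Slc15a3* (ENSMUSG00000024737, chr19:10839727-10859362, forward strand) had an FPKM of 725, 666 and 982 in wild-type, 631, 647 and 695 in M-Shp2-/- and 781, 791 and 828 in SHP099 libraries. Wild type 3 was the highest of all 9 libraries, and the M-Shp2-/- libraries lay below all SHP099 libraries but overlapped wild type. The fold change on the log2 scale against wild type was -0.25 (adjusted p = 0.526) in M-Shp2-/- (-0.39 relative to all genes) and 0.036 (adjusted p = 0.902) with SHP099, which was -0.12 under median-of-ratios scaling and turned without wild type 1 (-0.017) or wild type 2 (-0.078). M-Shp2-/- against SHP099 gave -0.28 (standard error 0.076, 95% confidence interval -0.46 to -0.10, adjusted p = 0.279). Without M-Shp2-/- 3 this was -0.32 with an adjusted p of 0.0188 (over all alternatives 0.0188 to 0.749). Its exons share 1541 bases with *Tmem132a* on the opposite strand, so that reads of the 2 genes may not be told apart. *Unc93b1* and *Slc15a3* lie on the same chromosome 6.89 Mb apart, as do *Hsp90b1* and *Ap3d1*, 5.95 Mb apart.

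Of 6 relatives and partners of these transporters, 3 were tested. *Slc29a3*, a nucleoside transporter of lysosomes, had an FPKM of 37.4, 38.0 and 23.0 in wild-type, 53.5, 63.3 and 14.6 in M-Shp2-/- and 18.2, 17.1 and 14.5 in SHP099 libraries. The SHP099 libraries lay below all wild-type libraries, and M-Shp2-/- 1 and 2 above them while M-Shp2-/- 3 lay among the SHP099 libraries. It fell with SHP099, with a log2 fold difference of -0.91 (standard error 0.20, 95% confidence interval -1.39 to -0.44, adjusted p = 0.0433), and its value in M-Shp2-/- was 0.20 (adjusted p = 0.859), with the other sign without wild type 3 (-0.029), M-Shp2-/- 1 (-0.060) or M-Shp2-/- 2 (-0.18). The SHP099 call was lost without wild type 1 (0.106), wild type 2 (0.0916), SHP099 1 (0.122), SHP099 2 (0.167) or SHP099 3 (0.120), and over all alternatives the adjusted p was 0.00775 to 0.264. Between M-Shp2-/- and SHP099 the log2 fold change was 1.11 (adjusted p = 0.419), and 1.76 with an adjusted p of 0.00141 without M-Shp2-/- 3 (over all alternatives 0.00141 to 0.812). *Slc15a2* and *Irf5* did not pass in any comparison. *5430427O19Rik*, the mouse gene of TASL, had an FPKM of 0.479 to 1.18 and was under the filter, *Slc15a5* at most 0.0180, and *Slc15a1* was listed at 0 in all libraries.

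AP-3 is the adaptor complex that sorts cargo, endosomal TLRs among it, from endosomes to lysosome-related organelles. *Ap3b1* (ENSMUSG00000021686, chr13:94358960-94566317, forward strand) encodes its beta subunit and had an FPKM of 111, 106 and 105 in wild-type, 109.7, 106 and 106 in M-Shp2-/- and 103, 105 and 109 in SHP099 libraries. In FPKM as deposited, all 9 values lay within 103 to 111, the narrowest spread of the tested members, and the groups overlapped. Median-of-ratios scaling divides them by size factors of 0.835 (wild type 3) to 1.11 (M-Shp2-/- 1), which widens that spread. Its log2 fold change was -0.0046 (standard error 0.077, 95% confidence interval -0.19 to 0.18, adjusted p = 0.980) in M-Shp2-/- and -0.027 (standard error 0.070, 95% confidence interval -0.19 to 0.14, adjusted p = 0.840) with SHP099. The first of these changed sign without wild type 1 (0.021), M-Shp2-/- 2 (0.0033) or M-Shp2-/- 3 (0.0047). Relative to all genes, these were -0.15 and -0.15, and M-Shp2-/- against SHP099 gave 0.023 (adjusted p = 0.901), or -0.0042 with median-of-ratios scaling. Over all alternatives the fold change against wild type ran from -0.18 to 0.021 in M-Shp2-/- and from -0.18 to -0.0019 with SHP099.

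*Ap3d1* (ENSMUSG00000020198, chr10:80706956-80742264, reverse strand) encodes the delta subunit and had an FPKM of 140.3, 128 and 113 in wild-type, 159.7, 155 and 131 in M-Shp2-/- and 155, 137 and 140.0 in SHP099 libraries. Wild type 3 was lowest and the groups overlapped, with wild type 1 above M-Shp2-/- 3. The fold change on the log2 scale was 0.22 (adjusted p = 0.501) in M-Shp2-/- and 0.18 (adjusted p = 0.301) with SHP099, or 0.076 and 0.055 relative to all genes. Between M-Shp2-/- and SHP099 it was 0.041 (adjusted p = 0.882), and -0.014 without M-Shp2-/- 1. Of the 5 other AP-3 subunits 4 were tested, and 0 passed in limma or voom in any comparison, with 0 at an unadjusted p under 0.05. *Ap3s2*, the small subunit with the largest absolute change with SHP099, had a log2 fold difference of 0.14 (adjusted p = 0.592), and -0.010 with quantile normalization. *Ap3b2*, the neuronal beta subunit, was listed at 0 in all libraries. Of 16 subunits of the adaptor complexes AP-1, AP-2 and AP-4, 15 were tested and 0 passed by limma or voom in any comparison, with 4 at an unadjusted p under 0.05 for SHP099, 0 for M-Shp2-/- against wild type and 1 between M-Shp2-/- and SHP099, and *Ap1s3* had a log2 fold difference of -0.61 (adjusted p = 0.0906) with SHP099. Quantile normalization gave it an adjusted p of 0.0357 (over all alternatives 0.0357 to 0.225). Of 10 genes of BLOC complexes and Hermansky-Pudlak syndrome, which act with AP-3, all were tested and 0 passed by limma or voom in any comparison, with 3 at an unadjusted p under 0.05 for SHP099, 0 for M-Shp2-/- against wild type and 1 between M-Shp2-/- and SHP099. *Bloc1s4* had a log2 fold difference of 0.35 (adjusted p = 0.152) with SHP099, and an adjusted p of 0.0168 without wild type 3 (over all alternatives 0.0168 to 0.598).

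The position of lysosomes in the cell is set in part by the BORC complex. Of 11 BORC subunits and other genes of lysosome positioning, 10 were tested, and 2 rose with SHP099 by limma and by voom, beside 6.96% of all genes that passed in either direction. *Arl8a*, which encodes a small GTPase of lysosomes, had an FPKM of 308, 303 and 344 in wild-type, 321, 317 and 397 in M-Shp2-/- and 419.8, 429.8 and 412 in SHP099 libraries. The SHP099 libraries were the highest 3 of the 9, and M-Shp2-/- 3 came next. Its log2 fold change was 0.40 (standard error 0.081, 95% confidence interval 0.21 to 0.59, adjusted p = 0.0351) with SHP099 and 0.11 (adjusted p = 0.658) in M-Shp2-/-, and the latter was -0.069 with median-of-ratios scaling. *Plekhm1*, an effector that tethers lysosomes to other organelles, had an FPKM of 20.7, 19.8 and 16.7 in wild-type, 32.2, 32.3 and 21.8 in M-Shp2-/- and 27.5, 27.1 and 26.5 in SHP099 libraries. All SHP099 and all M-Shp2-/- libraries lay above all wild-type libraries, as for *Slc15a4*. For *Plekhm1* the log2 fold change was 0.49 (standard error 0.10, 95% confidence interval 0.25 to 0.73, adjusted p = 0.0383) with SHP099 and 0.55 (adjusted p = 0.455) in M-Shp2-/-. With median-of-ratios scaling neither passed with SHP099, with log2 fold differences of 0.25 for *Arl8a* (adjusted p = 0.337) and 0.34 for *Plekhm1* (adjusted p = 0.0519). The call of *Arl8a* was lost without wild type 1 (0.0863), wild type 2 (0.0868), SHP099 1 (0.141), SHP099 2 (0.167) or SHP099 3 (0.0954), and that of *Plekhm1* without wild type 1 (0.0621), wild type 2 (0.0716), SHP099 1 (0.157), SHP099 2 (0.170) or SHP099 3 (0.102). Over all alternatives their adjusted p was 0.0154 to 0.337 and 0.0252 to 0.170. Exons of *Plekhm1* share 334 bases with *Arhgap27os1* on the opposite strand. Of the 10 genes 0 passed in M-Shp2-/- against wild type or against SHP099 by limma or voom, with 2 at an unadjusted p under 0.05 in either. The list's median was 0.26 in both comparisons with wild type, beside 0.15 and 0.13 for all genes, and 0.096 and 0.12 with median-of-ratios scaling.

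HGS, or HRS, is the ESCRT-0 subunit that sorts ubiquitinated cargo on endosomes, endosomal TLRs among it. Its gene has 2 entries in the table, as ENSMUSG00000025793 (chr11:120467635-120483979) and ENSMUSG00000116045 (chr11:120467635-120483984), both on the forward strand. The first had an FPKM of 0.0135, 0 and 0.0282 in wild-type, 0, 0.0292 and 0 in M-Shp2-/- and 0.0273, 0.0151 and 0 in SHP099 libraries, and the second was listed at 0 in all 9. These values stand for 8 reads in all 9 libraries together, 0 to 2 per library, under the floor of 3 reads, which is worth an FPKM of 0.0353 to 0.0452 here and covers counting error only. No fold change is given. In GENCODE M21 the 2 records share 2897 exon bases on the same strand, 97.2% of the first and 99.6% of the second. The level of *Hgs* mRNA is therefore uncertain, since reads that fit both records may not be counted, and how the counting treated such reads is not given in the sources used here.

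Other protein-coding genes were compared by the share of their exon bases that another gene covers on the same strand. Of 20312 genes with none, 44.0% had a mean FPKM under 0.1 and 45.6% one of at least 1. Where up to 25% is shared, fewer were low, 27.2% being under 0.1 and 63.1% at least 1. These shares were 38.5% and 38.5% where over 25% and up to 50% is shared, and 53.3% and 22.1% where over 50% and up to 75% is. Of 136 genes that share from over 75% to under 100%, 81.6% were under 0.1 and 7.35% at least 1. Of 126 genes that share all, 126 were under 0.1 and 0 reached 1. Among the other listed genes, *Ap4b1* (82.4% shared), *Vps25* (67.2%) and *Bloc1s1* (55.9%) share over 50% and had mean FPKM values of 0.518, 0.243 and 0.536. All 3 were under the filter, so that an AP-4, an ESCRT-II and a BORC subunit were, like *Hgs*, not tested.

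**Figure D4:**
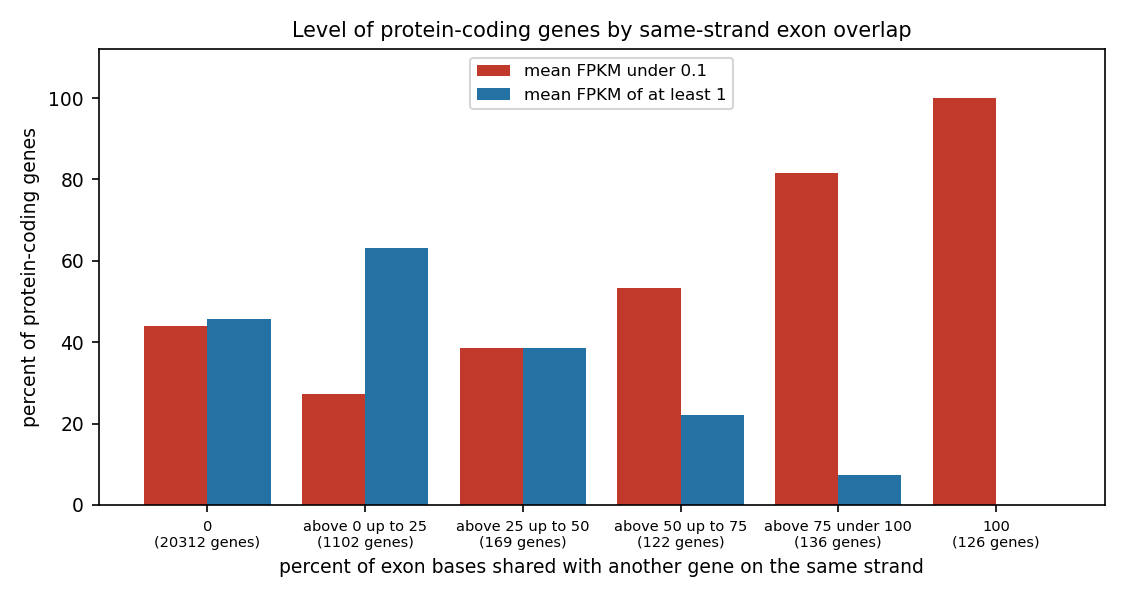
Percent of protein-coding genes (vertical axis) with a mean FPKM under 0.1 or of at least 1 over the 9 libraries, by the percent of exon bases shared with another gene on the same strand (horizontal axis, with the number of genes). The share under 0.1 is 44.0% without overlap and reaches all 126 genes with full overlap; the *Hgs* records share 97.2% and 99.6%.

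The other ESCRT-0, ESCRT-I and ESCRT-II genes were better covered. Of 13 listed, 12 were tested, and 0 passed by limma or voom in any comparison, with 1 at an unadjusted p under 0.05 in M-Shp2-/- against wild type, 4 with SHP099 (beside 26.7% of all genes) and 0 between M-Shp2-/- and SHP099. HGS acts with STAM proteins, and *Stam* had an FPKM of 20.3 to 26.4 and *Stam2* of 42.9 to 49.4 over the 9 libraries. *Mvb12b*, the ESCRT-I subunit with the largest absolute change, had a log2 fold difference of 0.44 (adjusted p = 0.157) with SHP099 and 0.44 (adjusted p = 0.454) in M-Shp2-/-. The median of the list was 0.094 and 0.038 in M-Shp2-/- and SHP099 against wild type, and -0.079 and -0.11 with median-of-ratios scaling.

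The cargo itself was among the genes that fell with SHP099. Of 7 endosomal TLRs 4 were tested and 2 fell, beside 6.96% of all genes that passed in either direction, *Tlr7* with a log2 fold difference of -0.75 (-0.88 relative to all genes, adjusted p = 0.0314) and *Tlr8*, its neighbour on chromosome X, with -1.90 (standard error 0.31, 95% confidence interval -2.64 to -1.16, adjusted p = 0.0228). The FPKM of *Tlr8* was 72.3, 37.5 and 60.3 in wild-type, 32.4, 46.6 and 22.6 in M-Shp2-/- and 8.93, 16.4 and 18.4 in SHP099 libraries. All SHP099 libraries lay below all other libraries, and M-Shp2-/- libraries overlapped wild type. *Tlr13*, which senses bacterial ribosomal RNA and was named after its values were seen, went the other way, with an FPKM of 40.7, 34.5 and 47.9 in wild-type, 49.6, 55.3 and 57.3 in M-Shp2-/- and 50.7, 62.8 and 63.5 in SHP099 libraries. In FPKM as deposited its SHP099 and M-Shp2-/- libraries lay above all wild-type libraries. Wild type 3, the highest of these, has a size factor of 0.835 and after median-of-ratios scaling lies above M-Shp2-/- 1. Neither the SHP099 difference of *Tlr13*, 0.52 on the log2 scale (adjusted p = 0.0739), nor that of 0.40 in M-Shp2-/- (adjusted p = 0.465) passed. In M-Shp2-/- the log2 fold changes of *Tlr7* and *Tlr8* were -0.25 (adjusted p = 0.478) and -0.73 (adjusted p = 0.478), and M-Shp2-/- against SHP099 gave 0.50 (adjusted p = 0.324) and 1.16 (adjusted p = 0.300), so that a difference between the conditions was not shown. Without M-Shp2-/- 3 the last of these was 1.42 with an adjusted p of 0.0248, and with a fibroblast score as covariate the adjusted p was 0.0245 (over all alternatives 0.0245 to 0.749). The SHP099 call of *Tlr7* was lost without wild type 1 (0.0710), wild type 2 (0.0546), SHP099 1 (0.121) or SHP099 2 (0.142), and that of *Tlr8* without wild type 1 (0.0621), SHP099 1 (0.0651), SHP099 2 (0.109) or SHP099 3 (0.0606). Over all alternatives the adjusted p was 0.0237 to 0.142 for *Tlr7* (0.0541 with median-of-ratios scaling) and 0.00714 to 0.109 for *Tlr8*. Of 5 cell-surface TLRs 4 were tested and *Tlr2* fell with SHP099, with a log2 fold difference of -0.49 (standard error 0.10, 95% confidence interval -0.72 to -0.27, adjusted p = 0.0325), a call lost without wild type 2 (0.0763), SHP099 1 (0.135), SHP099 2 (0.148) or SHP099 3 (0.0805) (over all alternatives 0.0279 to 0.148). Of the 8 tested TLRs 0 passed in M-Shp2-/- against wild type by limma or voom, with 1 at an unadjusted p under 0.05.

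Endolysosomal proteases cut TLR7 and TLR9 into their signaling form. Of 7 listed, 6 were tested and 0 passed by limma or voom in any comparison, with 3 at an unadjusted p under 0.05 for SHP099, 0 for M-Shp2-/- against wild type and 1 between M-Shp2-/- and SHP099. All 6 had a log2 fold change below 0 with SHP099, under each scaling too, with a median of -0.28. *Ctsk*, which encodes cathepsin K, had the largest, -0.80 (adjusted p = 0.0931), and 0.00596 was its adjusted p without wild type 3 (over all alternatives 0.00596 to 0.280). Its FPKM was 149, 124 and 71.6 in wild-type, 172, 190.3 and 102 in M-Shp2-/- and 61.4, 64.3 and 61.6 in SHP099 libraries, with all SHP099 libraries below all others. M-Shp2-/- against SHP099 gave 1.25 (adjusted p = 0.183) for it, an adjusted p of 0.0221 with a fibroblast score as covariate and of 0.000802 without M-Shp2-/- 3 (over all alternatives 0.000802 to 0.686). Of 5 genes that degrade nucleic acids all were tested, and *Pld3*, a lysosomal exonuclease, fell with SHP099. Its FPKM was 1356, 1226 and 1243 in wild-type, 1539, 1744 and 793 in M-Shp2-/- and 966, 873 and 956 in SHP099 libraries. The SHP099 libraries lay below all wild-type libraries, and so did M-Shp2-/- 3, while M-Shp2-/- 1 and 2 lay above them. The fold change on the log2 scale was -0.45 (standard error 0.089, 95% confidence interval -0.66 to -0.24, adjusted p = 0.0342), a call lost without wild type 1 (0.0825), wild type 2 (0.0606), SHP099 1 (0.120), SHP099 2 (0.165) or SHP099 3 (0.0945) and with quantile normalization (0.0906), over all alternatives 0.0266 to 0.298. In M-Shp2-/- it was 0.014 (adjusted p = 0.984), or -0.16 with median-of-ratios scaling, and the sign also turned without wild type 2 (-0.013), wild type 3 (-0.0035), M-Shp2-/- 1 (-0.12) or M-Shp2-/- 2 (-0.21). Of 9 Rab GTPases and syntenin 8 were tested and 0 passed by limma or voom, with 2 at an unadjusted p under 0.05 for SHP099 and 1 for either other comparison. *Rab7b*, of late endosomes, had 0.77 (adjusted p = 0.112) with SHP099 and 1.07 (adjusted p = 0.465) in M-Shp2-/-.

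Over the 12 lists, 93 of 106 genes were tested. With SHP099, 2 rose (*Arl8a* and *Plekhm1*) and 5 fell (*Tlr7*, *Tlr8*, *Tlr2*, *Slc29a3* and *Pld3*), which is 7.53% of the 93 and close to the 6.96% of all genes tested. With voom the counts were also 2 and 5, with quantile normalization 2 and 6, where *Ctss* (-0.42, adjusted p = 0.0448, named after its values were seen) and *Ap1s3* passed and *Pld3* did not, and with median-of-ratios scaling 0 and 5, where *Tlr7* (0.0541) and *Tlr2* (0.0545) did not pass and *Ctsk* (0.0481) and the AP-1 subunit gene *Ap1s1* (0.0300, named after its values were seen) did. Without the filter on low FPKM none of the 7 passed, with adjusted p from 0.0808 for *Arl8a* to 0.151 for *Slc29a3*. A fit without the trend of limma's variance lost *Tlr2* (0.0524), *Slc29a3* (0.0572), *Arl8a* (0.0586) and *Plekhm1* (0.0524). A fit of all 9 libraries lost *Slc29a3* (0.264), *Arl8a* (0.0505), *Plekhm1* (0.0868) and *Pld3* (0.298), and the fibroblast score as covariate lost *Tlr2* (0.0506), *Plekhm1* (0.0649) and *Pld3* (0.0591), with adjusted p in parentheses. Among these genes 0 passed in M-Shp2-/- against wild type or against SHP099 by limma or voom, with 6 and 13 at an unadjusted p under 0.05, beside 10.5% and 12.6% of all genes. Without M-Shp2-/- 3, M-Shp2-/- against SHP099 also passed for *Tlr2* (0.35, adjusted p = 0.0200), *Arl8a* (-0.40, adjusted p = 0.00782), *Plekhm1* (0.25, adjusted p = 0.0408), *Pld3* (0.82, adjusted p = 0.00346) and *Rab7b* (0.69, adjusted p = 0.0380), each with its log2 fold difference, in a fit where 19.9% of all genes passed. The median log2 fold change of the 93 was 0.13 in M-Shp2-/- and 0.033 with SHP099 against wild type, beside 0.15 and 0.13 for all genes, and -0.050 and -0.11 with median-of-ratios scaling. Of the 797 genes that passed with SHP099 among all 11450, 521 were higher, but with median-of-ratios scaling 172 of 511.

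**Figure D5:**
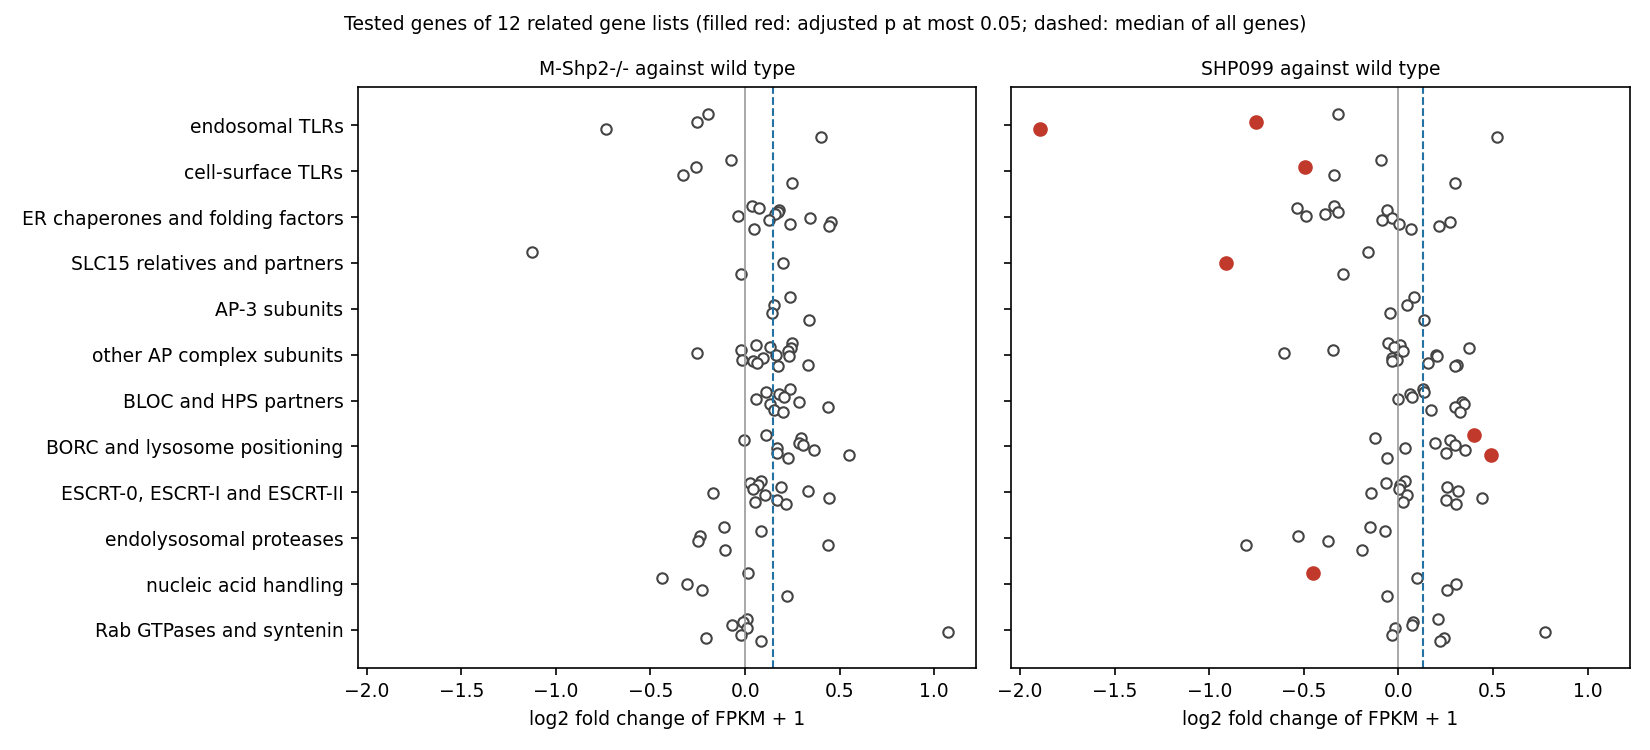
Log2 fold change (horizontal axis) of each tested gene of the 12 lists against wild type, in M-Shp2-/- and with SHP099, with filled red points for adjusted p values up to 0.05 and the median of all genes as a dashed line. All 7 filled points are in the SHP099 panel, from -1.90 for *Tlr8* to 0.49 for *Plekhm1*.

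For *Hsp90b1* and *Slc15a4*, the members whose group means ranged most widely, the genes most alike over the 9 libraries were sought by Pearson's r of log2(FPKM + 1), as a description with no test. For *Hsp90b1* they were *Pdia3* (r = 0.994, n = 9 libraries) and *Manf* (r = 0.989). *Pdia3* had an FPKM of 356, 316 and 195 in wild-type, 359, 376 and 233 in M-Shp2-/- and 231, 205 and 237 in SHP099 libraries, with the same 4 libraries highest. For *Slc15a4* they were *Poc1b* (r = 0.982) and *Tbc1d5* (r = 0.981). *Tbc1d5* had an FPKM of 8.82, 8.27 and 8.28 in wild-type, 11.9, 11.3 and 9.87 in M-Shp2-/- and 10.4, 11.3 and 10.5 in SHP099 libraries, and its wild-type libraries were the lowest 3. The 9 libraries share groups and, in places, markers of other cells, and these r values come from a search over all tested genes.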

How the data were processed

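RNA of 3 wild-type, 3 M-Shp2-/- and 3 SHP099-pretreated wild-type macrophage samples, all given IMQ, was sequenced after NEBNext Ultra library preparation. Per the submitters' notes, CASAVA 1.8, HISAT2 2.0.4 and HTSeq 0.9.1 were used, and the authors deposited FPKM per gene. The genome build, annotation, FPKM tool and strand of counting are not given in the sources used here. Gene symbols and exons were taken from GENCODE M21 (53706 of 54059 genes matched). Low FPKM values stepped in whole reads for 96.3% to 96.7% of values of up to 50 reads (within 0.05, 10.0% by chance), which gave 39842200 to 50979808 reads per library.

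The log2(FPKM + 1) of the 11450 genes whose FPKM averaged at least 1 was fitted with limma 3.58.1 (R 4.3.3, lmFit and eBayes with trend, two-sided), 6 libraries a fit, with Benjamini-Hochberg adjustment over all genes tested. The scripts were tested on simulated data. Alternatives were other pseudocounts, filters, scalings and fits, a replicate block and leaving out each library. Voom on recovered reads, a fibroblast score as covariate and leaving out the third libraries of wild type and M-Shp2-/- were chosen after seeing the data. Named genes are all members, *Tlr7* and *Ptpn11*, of each list those with an adjusted p of at most 0.05 in a comparison or else the one with the largest absolute fold change with SHP099, the 2 genes most alike to 3 members, and the leading gene of each marker list. Of the members and markers, 2 genes are not reported here. The members and lists were chosen with earlier results of these data known.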

Additional observations from a re-analysis of the deposited data

How the results depend on the processing

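Over 66 results and their alternatives, 1087 of 1248 log2 fold changes kept direction and side of the threshold, 76 lost the call, 34 gained it and 51 changed sign. The genes past the thresholds of the study numbered 1 in M-Shp2-/- against wild type. That count was 10 by the adjusted p limit of 0.05 with no fold threshold, 3 with median-of-ratios scaling, 2 with all 9 libraries in one fit, and 0 without the filter on low FPKM, without the trend in eBayes, with the fibroblast score as covariate, without the third libraries of wild type and M-Shp2-/-, and without any 1 library (0 to 0). With SHP099 it was 19, and 797 with no fold threshold (521 higher, against 172 of 511 with median-of-ratios scaling, 344 of 700 with quantile normalization and 485 of 758 with equal FPKM sums), 0 without the filter, 4 without the trend, 9 with voom and 0 to 26 without 1 library. In M-Shp2-/- against SHP099 it was 0, and 8 with no fold threshold, 1 with all 9 libraries in one fit, 159 without the third libraries and 0 to 159 without 1 library. Members with an adjusted p of at most 0.05 with SHP099 numbered 1, but 0 without the filter or with median-of-ratios scaling, 2 without the third libraries and 0 to 2 without 1 library, and in M-Shp2-/- against SHP099 0, but 2 without the third libraries and 0 to 2 without 1 library. Of all genes, 1273 passed that limit with SHP099 without wild type 3 and 2277 in M-Shp2-/- against SHP099 without M-Shp2-/- 3. With the fibroblast score as covariate 78 passed it in M-Shp2-/- against SHP099, against 8 in the main fit.

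The labels do not say whether the replicate numbers pair the libraries, and residuals of 3 libraries a group cannot settle it. Residuals of libraries with the same number correlated by -0.43 to 0.49 between wild type and M-Shp2-/-, -0.090 to 0.45 between wild type and SHP099 and -0.047 to 0.18 between M-Shp2-/- and SHP099, and not every library correlated best with its own number. With the number as a replicate block, 0 genes passed the thresholds of the study in M-Shp2-/- against wild type (2 by the adjusted p limit of 0.05) and 0 with SHP099 (591), and 0 members passed with SHP099, where *Slc15a4* had an adjusted p of 0.0504. With the block the SHP099 calls of *Arl8a* (0.0678), *Plekhm1* (0.0513) and *Pld3* (0.0584) were also lost, with adjusted p in parentheses. *Ptpn11* then had an adjusted p of 0.157 in M-Shp2-/- against wild type and 0.146 against SHP099.

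In M-Shp2-/- against wild type, log2 fold changes that changed sign were -0.053 for *Hsp90b1*, -0.11 for *Calr*, -0.038 for *Bloc1s4*, -0.069 for *Arl8a* and -0.16 for *Pld3* with median-of-ratios scaling, 0.0027 for *Unc93b1* with the fibroblast score as covariate, and 0.064 for *Unc93b1* with the third libraries of wild type and M-Shp2-/- left out. In SHP099 against wild type, log2 fold changes that changed sign were -0.12 for *Slc15a3* with median-of-ratios scaling, and -0.010 for *Ap3s2* with quantile normalization. In M-Shp2-/- against SHP099, log2 fold changes that changed sign were 0.0039 for *Mvb12b* with a pseudocount of 0.1, -0.0024 for *Unc93b1*, -0.0022 for *Slc15a4* and -0.0042 for *Ap3b1* with median-of-ratios scaling, 0.0018 for *Mvb12b* with equal FPKM sums, and 0.012 for *Mvb12b* with voom. The cause was not tested.

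Leaving out 1 library at a time, log2 fold changes in M-Shp2-/- against wild type ran from -0.022 to 0.021 for *Ap3b1*, -0.24 to 0.50 for *Calr*, -0.16 to 0.40 for *Hsp90b1*, -0.21 to 0.36 for *Pld3*, -1.24 to -1.15 for *Ptpn11*, -0.18 to 0.84 for *Slc29a3* and -0.19 to 0.094 for *Unc93b1*. With SHP099 against wild type they ran from 0.37 to 0.46 for *Arl8a*, 0.27 to 0.49 for *Bloc1s4*, -0.85 to -0.29 for *Calr*, -1.11 to -0.59 for *Ctsk*, -0.68 to -0.21 for *Hsp90b1*, -0.48 to -0.41 for *Pld3*, 0.40 to 0.55 for *Plekhm1*, -0.078 to 0.20 for *Slc15a3*, 0.43 to 0.53 for *Slc15a4*, -1.14 to -0.79 for *Slc29a3*, -0.57 to -0.45 for *Tlr2*, -0.90 to -0.67 for *Tlr7* and -2.16 to -1.60 for *Tlr8*. For M-Shp2-/- against SHP099 they ran from -0.014 to 0.13 for *Ap3d1*, -0.40 to -0.23 for *Arl8a*, 0.39 to 1.04 for *Calr*, -0.023 to 0.20 for *Cnpy3*, 1.07 to 1.52 for *Ctsk*, 0.36 to 0.80 for *Hsp90b1*, -0.16 to 0.086 for *Mvb12b*, 0.25 to 0.82 for *Pld3*, -0.028 to 0.25 for *Plekhm1*, -1.17 to -1.11 for *Ptpn11*, 0.071 to 0.69 for *Rab7b*, -0.32 to -0.25 for *Slc15a3*, -0.041 to 0.13 for *Slc15a4*, 0.73 to 1.76 for *Slc29a3*, 0.18 to 0.35 for *Tlr2*, 0.87 to 1.42 for *Tlr8* and -0.074 to 0.21 for *Unc93b1*. These are the results with a call or sign that depended on 1 library. With 1 library left out, a group holds 2. *Hgs*, at 0 to 2 reads, was given no fold change.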

Other observations

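Symbols with more than 1 protein-coding entry in the table numbered 22, *Hgs* among them, and for 13 of them at least 1 entry shares over 50% of its exon bases with another gene on the same strand. Of the 17 entries of that kind, 14 had a mean FPKM under 0.1 over the 9 libraries.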
